A study of Mus musculus with 6 samples.

Results

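Interferon-stimulated genes were followed across granulocyte/macrophage progenitors (GMPs), progenitors in bone marrow from which granulocytes and monocytes arise, of 3 mouse genotypes. The list held 35 genes, chosen by name. Of these, 33 had at least 1 probe set of their own, out of 18193 genes with a probe set, and together they had 49 of the 45037 probe sets. Isg15 and Ifi44 had none of their own and have no value here. Of the 33 genes measured, 28 passed the filter on low values, and Oasl1, Mx1, Mx2, Ifi203 and Ifi204 did not. One probe set stands for each gene, the one with the highest mean, and its value is an array intensity on a linear scale.

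The series asks how losses of the transcription factors IRF4 and IRF8 combine in blood cancers. GMPs were sorted from bone marrow of BL6 mice by the gate Lin-, IL-7R-, Kit+, Sca1-, CD34+ and high in Fc gamma receptors II and III, and RNA of each sample was hybridised to 1 Affymetrix array. Wild-type (WT) mice were a male of 12 weeks (replicate 1) and a female of 19 weeks (replicate 2). The mice labelled IRF8KO were a female of 12 weeks (replicate 1) and a male of 22 weeks (replicate 2), and those labelled IRF4/8DKO were a male (replicate 1) and a female (replicate 2), both of 16 weeks. All 3 genotypes share the strain and no treatment is given. The sources used here do not give the alleles behind the deletions.

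Interferons act through cell surface receptors and JAK kinases on STAT proteins. Type I interferon leads to a complex of STAT proteins with IRF9 that binds the interferon-stimulated response element, and genes induced by interferon gamma often hold a gamma-activated site. The genes switched on in this way code for antiviral enzymes, sensors of viral RNA, GTPases that attack vacuoles holding pathogens, parts of the MHC class I pathway and chemokines. IRF8 was first described as a protein binding the response element of such genes, and with the ETS factor PU.1 it also binds a composite element. Many interferon-stimulated genes are read at a low level in cells that have met no added interferon.

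The promoters of the members were searched in RefSeq sequences of assembly GRCm38.p6, in windows of 300 bases from 250 bases before to 50 bases after the start. The core of the response element was taken as GAAA, any 2 bases and GAAA again, on either strand. It was found for 17 of the 28 listed genes that had a promoter sequence (60.7%), against 3.44% of all 32851 promoters. The composite element core, GGAA, any 2 bases and GAAA, was found for 4 genes (14.3%, against 2.72%), and the gamma-activated site core TTCNNNGAA for 7 genes (25%, against 8.30%). Shares of members are per gene, over all its promoters, and those of the background are per promoter. Per promoter, the 3 motifs were found in 17, 5 and 7 of the 32 member promoters. Matches can overlap one another, as those of the first motif do in Oas1a and Irgm1. The 5 sites below belong to members with a test printed below and with a match to the first motif, and capitals mark the matched bases. Gbp3 and Ifih1 also have both, and their sites are not shown. They are at chr5:120907518-120907557 on the minus strand, chr12:26456551-26456584 on the minus strand, chr11:58199504-58199543 on the plus strand, chr11:48871423-48871462 on the minus strand and chr3:142620592-142620625 on the plus strand. In Igtp the capitals join 1 match to the composite core with 1 match to the response element core.

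Oas1a: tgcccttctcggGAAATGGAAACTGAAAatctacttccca
Rsad2: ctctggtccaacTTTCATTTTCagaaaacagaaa
Igtp: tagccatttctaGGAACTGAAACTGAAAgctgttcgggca
Irgm1: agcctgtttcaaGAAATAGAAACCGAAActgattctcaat
Gbp2: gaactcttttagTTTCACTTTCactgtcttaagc

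Psmb8, the member with the lowest p in IRF8KO against WT, had no match to the first or the second motif in its window. Its whole promoter, at chr17:34197945-34198244 on the plus strand, is shown with the match to TTCNNNGAA in capitals, which starts 97 bases before the start site. The promoters of Tap1 and Psmb9 lie on opposite strands and share 275 bases, and none of the 3 motifs was found in either. A motif match is a description of the letters only.

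Psmb8: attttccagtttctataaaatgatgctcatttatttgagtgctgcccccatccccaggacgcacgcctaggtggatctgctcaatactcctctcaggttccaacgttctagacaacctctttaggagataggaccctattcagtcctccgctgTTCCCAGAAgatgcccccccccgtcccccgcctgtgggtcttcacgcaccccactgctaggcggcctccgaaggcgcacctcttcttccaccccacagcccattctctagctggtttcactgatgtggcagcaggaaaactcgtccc

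Median intensity ran from 34.1 to 45.3 over the 6 arrays, with the lowest on IRF4/8DKO replicate 2. Across the probe sets kept, which are not independent replicates, Pearson's r between the arrays of 1 genotype was 0.968 (WT), 0.912 (IRF8KO) and 0.952 (IRF4/8DKO). The 4 probe sets of Irf8 and Irf4 had limma adjusted p (Benjamini-Hochberg) from 0.287 to 0.990 over the comparisons, and Irf8 read 507 or more on every array. How these probe sets lie against the deleted parts is unknown here, so they neither check nor contradict the genotype labels. All 8 genes of the gate and of GMP granules lay above the 40th percentile of each array. Of the gate markers, Cd34 read 1747 and 1401 in WT and 440.3 to 669 in the knockout arrays. Fcgr3 went the other way, at 1090 and 1259 in WT and 2516 to 6315 in the knockout arrays. Fcgr2b read 512 and 770 in WT and 618 to 1271 in the knockout arrays, and Kit overlapped between all genotypes. Erythroid markers (5 genes) summed to 5206 and 2089 in WT and to 154 to 800.03 in the knockout arrays. Eosinophil, basophil and mast cell markers (6 genes) summed to 11173 and 7179 in WT, 3931 and 1424 in IRF8KO, and 447 and 539 in IRF4/8DKO. The summed intensity of 7 measured monocyte and macrophage markers was 9845 and 10143 in WT, 18312 and 20285 in IRF8KO, and 21190 and 27006 in IRF4/8DKO. Neutrophil maturation markers (9 genes) summed to 12474 and 30222, 25525 and 47233, and 20972 and 45718, higher on replicate 2 of each genotype. Plasmacytoid dendritic cells, a main source of interferon, have Siglech as a defining marker, and it was between 1 and 4.07 on all arrays. Of the 7 plasmacytoid markers, 5 lay above the 40th percentile on IRF4/8DKO replicate 2 and 6 on each of the other arrays. The 7 summed to between 1396 and 2505, lowest on IRF4/8DKO replicate 2. Most of the sum came from Tcf4 (580 to 1043) and Klk1 (484 to 1210). In sorted bulk RNA, fewer cells of a type and less RNA per cell cannot be told apart, and the part of these markers in the results was not tested.

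The interferon-stimulated genes lay on both sides of WT in IRF8KO and more often above than below WT in IRF4/8DKO, and none passed the test. Over all 33 genes measured, the median log2 difference was -0.043 in IRF8KO against WT, 0.29 in IRF4/8DKO against WT and 0.24 in IRF4/8DKO against IRF8KO, where the medians of all genes were 0.063, 0.020 and -0.038. A log2 difference is of log2(value + 10.5), which understates changes of low genes. In IRF8KO 16 genes lay above and 17 below WT, and in IRF4/8DKO 20 above and 13 below. These counts include the 5 genes under the filter, and the share of all genes above WT was not computed. For the 28 genes kept, the IRF4/8DKO median against WT was 0.017 between the male arrays and 0.49 between the female arrays. No member passed the limma test in any of 4 comparisons, the fourth being both IRF8-deficient genotypes together against WT (0 of 28 each time, Benjamini-Hochberg adjusted p from 0.133 upward). The same test called 0.0453%, 0.408%, 0.00% and 0.747% of the genes kept, in the order IRF8KO against WT, IRF4/8DKO against WT, IRF4/8DKO against IRF8KO, and both against WT. At an unadjusted p under 0.05, 1 member was higher and 2 lower in the first comparison, 1 higher in the second, 3 higher in the third and 1 lower in the fourth. The background of unadjusted calls was 12.0%, 7.99%, 7.77% and 10.2% of genes kept. Over all 39 member probe sets kept, 0 passed the limma test in each comparison (0.0302%, 0.299%, 0.00% and 0.601% of all probe sets kept did), and 4, 3, 4 and 3 had an unadjusted p under 0.05 (13.5%, 9.05%, 8.52% and 11.6% of all did). The comparisons against WT share the WT arrays, and the others share the knockout arrays. Labels do not describe the mice beyond age and sex, and the p-values measure the spread between these samples only.

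**Figure D1:**
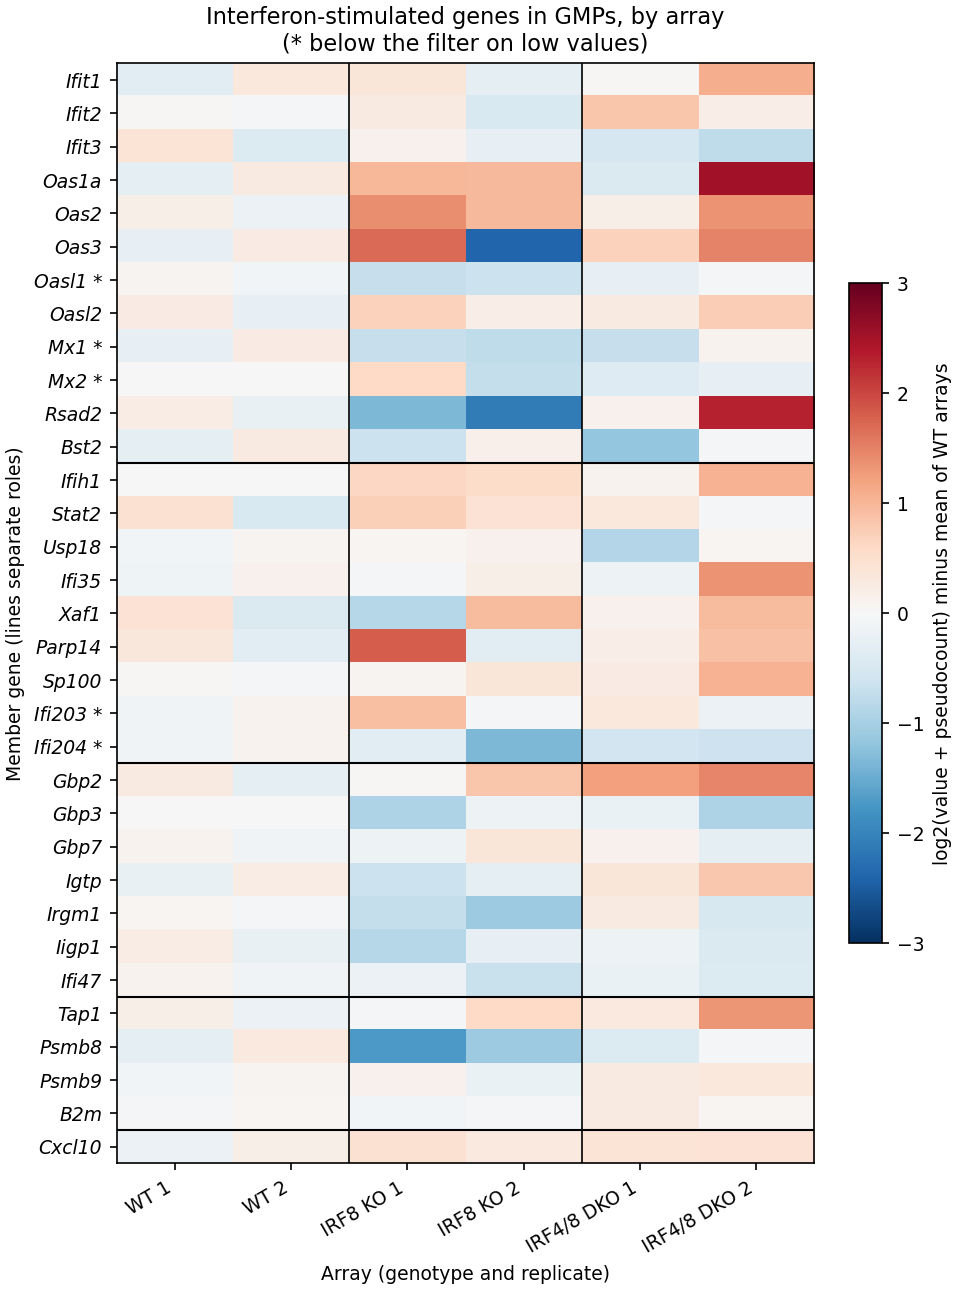
Colour gives log2(value + 10.5) minus the mean of the 2 WT arrays for the 33 measured genes (vertical axis, grouped by role) on each of the 6 arrays (horizontal axis). Red cells gather on IRF4/8DKO replicate 2, where Oas1a and Rsad2 are darkest, while Rsad2, Psmb8 and Irgm1 are blue on both IRF8KO arrays.

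Antiviral effectors came first in the list, with 13 genes, 12 of them measured and 9 kept. Rsad2, which codes for viperin, an enzyme that makes a chain-ending nucleotide, ranged widely. It read 143 and 101 in WT, 40.9 and 20.1 in IRF8KO, and 131 and 634 in IRF4/8DKO. Both IRF8KO arrays lay below all 4 others, and the high value of IRF4/8DKO came from replicate 2 alone. Rsad2 differed by a log2 of -1.72 ± 0.68 (SE, 2 arrays per genotype) in IRF8KO against WT (limma adjusted p = 0.328, from 0.149 to 0.813 over alternatives). Expression of Rsad2 was 7.63-fold higher in IRF4/8DKO than in IRF8KO (log2 2.93 ± 0.68, limma adjusted p = 0.508, from 0.0783 to 0.963 over alternatives), a difference that was 1.84 without IRF4/8DKO replicate 2 and 4.02 without replicate 1. Against WT the IRF4/8DKO difference was 1.21 ± 0.68 (limma adjusted p = 0.680), with overlapping arrays, and 0.12 without IRF4/8DKO replicate 2. The other probe sets of Rsad2 read 5.46 to 47.5 and 6.84 to 35.2 over all arrays. In IRF4/8DKO against IRF8KO they differed by a log2 of 0.19 and 0.40. They too lay lower in IRF8KO than in WT, by a log2 of -0.90 and -0.74, but in IRF4/8DKO they lay below WT, at -0.71 and -0.34.

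The oligoadenylate synthetases make a second messenger that activates RNase L when double-stranded RNA is present. Oas2 read 73.6 and 56.2 in WT, 186 and 136 in IRF8KO, and 74.1 and 179.9 in IRF4/8DKO. Every knockout array was above both WT arrays, the lowest by a narrow margin. In IRF8KO it was 2.26-fold above WT (log2 1.18 ± 0.50, limma adjusted p = 0.357), and in IRF4/8DKO the log2 difference was 0.76 ± 0.50 (limma adjusted p = 0.743), or 0.18 without replicate 2. Over both genotypes it was 0.97 ± 0.43 (limma adjusted p = 0.438). Oas1a read 486 and 711 in WT, 1175 and 1159 in IRF8KO, and 434 and 3396 in IRF4/8DKO. The IRF8KO arrays were nearly equal to each other and above WT, while those of IRF4/8DKO, both from mice of 16 weeks, were 7.83-fold apart and stood at opposite ends of the 6 arrays. Over both genotypes Oas1a differed from WT by 1.01 ± 0.68 (limma adjusted p = 0.635), or 0.27 without IRF4/8DKO replicate 2.

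Oas3 read 60.7 and 89.3 in WT, 262 and 5.60 in IRF8KO, and 126 and 224 in IRF4/8DKO. The IRF8KO arrays held both the highest and the lowest of the 6 values, 46.7-fold apart. Without IRF8KO replicate 1 Oas3 lay lower in IRF8KO than in WT and higher in IRF4/8DKO than in IRF8KO. Without IRF8KO replicate 2 both directions were opposite, so each rests on a single IRF8KO array. Oasl2, of the oligoadenylate synthetase-like branch, read 123 and 83.5 in WT, 171 and 118 in IRF8KO, and 125 and 176 in IRF4/8DKO. It lay higher in IRF4/8DKO than in WT on both arrays, by a small margin on replicate 1. Near copies of genes exist in the Oas1, Gbp, Ifi200 and immunity-related GTPase families, and cross-hybridisation between them was not tested.

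The Ifit genes code for proteins that bind foreign RNA and block its translation. Ifit1 read 34.8 and 60.2 in WT, 62.8 and 35.8 in IRF8KO, and 47.2 and 109 in IRF4/8DKO. Ifit2 read 547 and 513, 643 and 382, and 958 and 612. Ifit3 read 189 and 104, 155 and 116, and 96.1 and 79.2. The family split in IRF4/8DKO: Ifit2 lay above and Ifit3 below every WT array, and Ifit1 overlapped with WT. Bst2, which codes for tetherin and holds budding virus at the cell surface, read 342 and 505 in WT, 261 and 465 in IRF8KO, and 180.3 and 400.3 in IRF4/8DKO, with overlap between all genotypes. Oasl1, Mx1 and Mx2 stayed under the filter, at 3.71 to 14.1, 2.01 to 14.7 and 3.70 to 24.9. The Mx genes belong to a family of dynamin-like GTPases, and no level of interferon response is read from their low values here.

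Genes of sensing, signalling and feedback numbered 10, of which 9 were measured and 7 kept. Ifih1, which codes for the RNA sensor MDA5, read 257 and 256 in WT, 403 and 381 in IRF8KO, and 277 and 538 in IRF4/8DKO. Every knockout array was above both WT arrays. Over both genotypes the log2 difference was 0.58 ± 0.39 (limma adjusted p = 0.634). Stat2, a part of the type I interferon complex, read 275 and 143, 334 and 271, and 249 and 191, with overlap of both knockout genotypes with WT. The other probe set of Stat2 did not overlap, at 52.6 and 58.6 in WT, 47.9 and 24.9 in IRF8KO, and 69.9 and 81.5 in IRF4/8DKO. Usp18, which takes ISG15 off proteins and damps the type I receptor, stayed low at 20.3 and 24.4, 23.8 and 25.4, and 7.39 and 23.6. Usp18 did not separate a knockout genotype from WT.

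Sp100, a nuclear body protein gene, read 534 and 514 in WT, 558 and 682 in IRF8KO, and 622 and 1091 in IRF4/8DKO. By this probe set all knockout arrays lay above WT, and the log2 difference in IRF4/8DKO was 0.64 ± 0.41 (limma adjusted p = 0.731), or 0.24 without replicate 2. The other kept probe set of Sp100 read 70.6 and 56.5 in WT, 116 and 269 in IRF8KO, and 57.9 and 147 in IRF4/8DKO. There IRF4/8DKO overlapped with WT, and the log2 difference was 1.35 in IRF8KO against WT. In IRF4/8DKO against IRF8KO it was -0.85, where the first probe set gave 0.41. Ifi35 read 2073 and 2501, 2237 and 2590.4, and 2063 and 5806, with 1 array apart from the other 5. In IRF8KO against WT this probe set gave a log2 difference of 0.080, and the other kept ones gave 0.22 and -0.34. The one at -0.34 read 321 and 377 in WT and 255 and 293 in IRF8KO. Xaf1, which codes for a partner of an apoptosis inhibitor, read 126 and 64.8, 45.6 and 186, and 100.5 and 184. Parp14, an ADP-ribosyltransferase gene, read 353 and 217, 1008 and 218, and 319 and 522, so that the 2 IRF8KO arrays were 4.64-fold apart. In IRF8KO against WT this probe set gave a log2 difference of 0.74 and the other kept one -0.61. In IRF4/8DKO against IRF8KO they gave -0.20 and 0.78. Ifi203 and Ifi204, of a family that includes DNA sensors, stayed under the filter, at 1 to 13.9 and 2.05 to 24.0.

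The interferon-inducible GTPases, all 7 measured and kept, lay mostly below WT in IRF8KO. Of these 7 genes 5 lay below WT on both arrays, and their median log2 difference was -0.46. Arrays did not overlap on the lower side for 8 of the 28 members kept (28.6%) and on the higher side for 5 (17.9%), where 20.7% and 23.9% of all genes kept did so. Leaving out any 1 of these 4 arrays gave 9 to 11 lower (29.9% to 38.1% of genes) and 8 to 12 higher (32.3% to 42.5%). Irgm1, which controls other GTPases of the family on membranes, read 381 and 345 in WT, 216 and 164 in IRF8KO, and 436 and 255 in IRF4/8DKO. Both IRF8KO arrays were below all others, with a log2 difference from WT of -0.91 ± 0.45 (limma adjusted p = 0.417) and one of 0.79 ± 0.45 in IRF4/8DKO against IRF8KO (limma adjusted p = 0.651). Igtp, of the same regulatory branch, read 315 and 436, 234 and 306, and 482 and 658. Its 3 genotypes did not overlap: IRF8KO was lowest, then WT, then IRF4/8DKO. Igtp was 2.06-fold higher in IRF4/8DKO than in IRF8KO (log2 1.05 ± 0.43, limma adjusted p = 0.566, from 0.338 to 0.963 over alternatives).

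Iigp1, an effector that coats pathogen vacuoles, read 41.0 and 26.9 in WT, 13.8 and 26.7 in IRF8KO, and 28.8 and 22.1 in IRF4/8DKO. Ifi47 read 2092 and 1818, 1725 and 1220.3, and 1701 and 1454. Ifi47 lay below WT on all 4 knockout arrays, and Iigp1 on both IRF8KO arrays, by a margin under 1 intensity unit on replicate 2. The IRF8KO log2 differences were -0.55 ± 0.41 for Iigp1 and -0.42 ± 0.31 for Ifi47 (limma adjusted p = 0.602 and 0.594). They were -0.24 for Iigp1 without IRF8KO replicate 1 and -0.18 for Ifi47 without IRF8KO replicate 2.

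The guanylate-binding proteins assemble on the same vacuoles and help to open them. Gbp2 read 113 and 74.3 in WT, 95.3 and 171 in IRF8KO, and 229 and 273 in IRF4/8DKO. Both IRF4/8DKO arrays were above all 4 others. Gbp2 was 2.54-fold above WT in IRF4/8DKO (log2 1.35 ± 0.46, limma adjusted p = 0.397, from 0.153 to 0.99996 over alternatives), and its other probe set gave a log2 difference of 2.13 (limma adjusted p = 0.266). Against IRF8KO the difference was 0.91 ± 0.46 (limma adjusted p = 0.621), and over both genotypes against WT it was 0.89 ± 0.40 (limma adjusted p = 0.441). Gbp3 went the other way, at 1260.5 and 1271 in WT, 665 and 1144 in IRF8KO, and 1097 and 656 in IRF4/8DKO. All 4 knockout arrays lay below WT, with a log2 difference over both genotypes of -0.55 ± 0.36 (limma adjusted p = 0.618). Gbp7 read 971 and 849.7, 819.8 and 1172, and 991 and 755, and overlapped between all genotypes. With its other kept probe set, however, every knockout array lay below WT. The WT values were 919 and 860.2, those of IRF8KO 523 and 625, and those of IRF4/8DKO 832 and 641 (over both genotypes log2 -0.45).

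**Figure D2:**
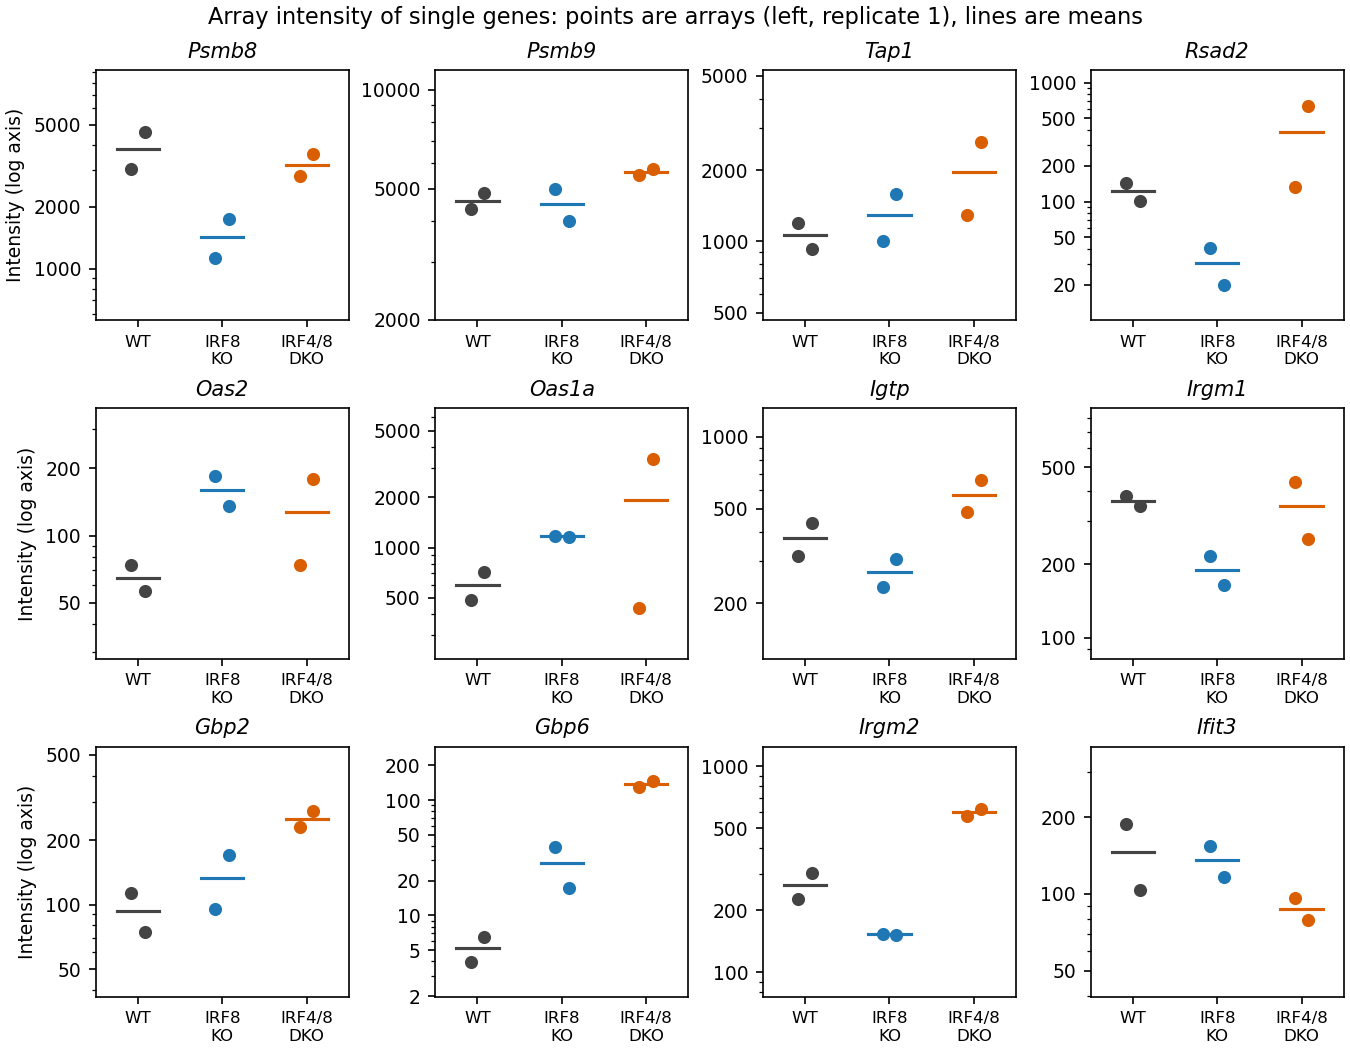
Points are array intensities (vertical log axis, a scale of its own in each panel) of 12 genes in WT, IRF8KO and IRF4/8DKO (horizontal axis, replicate 1 at the left of each pair), and lines are means of 2 arrays. Psmb8, Rsad2, Irgm1 and Irgm2 sit lowest in IRF8KO, Gbp2 and Gbp6 sit highest on both IRF4/8DKO arrays, and Oas1a shows 1 high and 1 low IRF4/8DKO array.

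Of the antigen-processing genes for MHC class I all 4 were measured and kept. Psmb8 codes for a subunit that replaces a standard catalytic subunit of the proteasome to form the immunoproteasome. It read 3046 and 4593 in WT, 1119.7 and 1739 in IRF8KO, and 2805 and 3592 in IRF4/8DKO. Both IRF8KO arrays lay below all 4 others, and IRF4/8DKO overlapped with WT. Psmb8 was 2.67-fold lower in IRF8KO than in WT (log2 -1.42 ± 0.32, limma adjusted p = 0.133, from 0.0394 to 0.6898 over alternatives). It was 2.26-fold higher in IRF4/8DKO than in IRF8KO (log2 1.18 ± 0.32, limma adjusted p = 0.537, from 0.154 to 0.963 over alternatives). Over both genotypes the difference from WT was -0.83 ± 0.28 (limma adjusted p = 0.290). Another probe set of Psmb8 read 6.25 to 17.5 and did not pass the filter.

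The other 3 genes of antigen processing were closer to WT in IRF8KO by the probe sets given first here, with log2 differences of -0.072 (B2m) to 0.26 (Tap1). Psmb9, another immunoproteasome subunit gene, read 4340 and 4850 in WT, 4977 and 3982 in IRF8KO, and 5509 and 5725 in IRF4/8DKO. Its IRF4/8DKO arrays lay above all others, by a log2 of 0.29 ± 0.20 against WT (limma adjusted p = 0.762) and 0.33 ± 0.20 against IRF8KO (limma adjusted p = 0.671). Tap1, which codes for a chain of the peptide transporter, read 1192 and 929, 1003 and 1589, and 1288 and 2636. It was above WT on both IRF4/8DKO arrays, with a log2 difference of 0.80 ± 0.42 (limma adjusted p = 0.653) that was 0.29 without replicate 2, and its other kept probe set gave -0.34. That probe set was also below WT on both IRF8KO arrays, by a log2 of -0.38. B2m, the light chain of MHC class I, read 8432 and 9097, 8293 and 8368, and 10566 and 9165. The IRF4/8DKO arrays of B2m were the highest, with a log2 difference from WT of 0.17 ± 0.15, and the IRF8KO arrays were the lowest by a narrow margin. Another B2m probe set read 5667 and 5823, 6805 and 6864, and 8000.1 and 8067, so that IRF8KO lay above WT there. Cxcl10, the single chemokine in the list, which draws T and NK cells, read 19.9 and 27.7 in WT, 36.4 and 31.0 in IRF8KO, and 35.1 and 35.3 in IRF4/8DKO. All its knockout arrays were above WT, at low intensity.

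Arrays of IRF4/8DKO and WT did not overlap on the higher side for 12 of the 28 members kept (42.9%) and on the lower side for 3 (10.7%), where 21.1% and 19.6% of genes kept did so. The higher ones were Ifit2, Oas2, Oas3, Oasl2, Ifih1, Sp100, Gbp2, Igtp, Tap1, Psmb9, B2m and Cxcl10, and the lower ones Ifit3, Gbp3 and Ifi47. With either IRF4/8DKO array left out the higher count was 14 or 18, and the lower count 8 or 6, against 35.05% or 41.4% and 33.7% or 37.9% of genes (without replicate 2 or without replicate 1). Without WT replicate 1 it was 16 higher and 6 lower (35.04% and 29.5% of genes), and without WT replicate 2 it was 13 and 5 (34.1% and 34.8%). Against IRF8KO 7 members were higher (25%, against 17.6% of genes) and 3 lower (10.7%, against 18.0%), among them Rsad2, Psmb8, Igtp and Irgm1 on the higher side. The 3 lower were Ifit3, Stat2 and Usp18, and leaving out any 1 of these 4 arrays gave 9 to 14 higher (29.7% to 35.7% of genes) and 5 to 8 lower (32.1% to 36.2%). Over both genotypes against WT 4 were higher (14.3%, against 10.7%), namely Oas2, Ifih1, Sp100 and Cxcl10, and 2 lower (7.14%, against 8.69%), namely Gbp3 and Ifi47. With any 1 of the 6 arrays left out these counts were 4 to 9 (14.0% to 21.9% of genes) and 2 to 4 (11.7% to 18.3%), with the 9 without WT replicate 1.

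**Figure D3:**
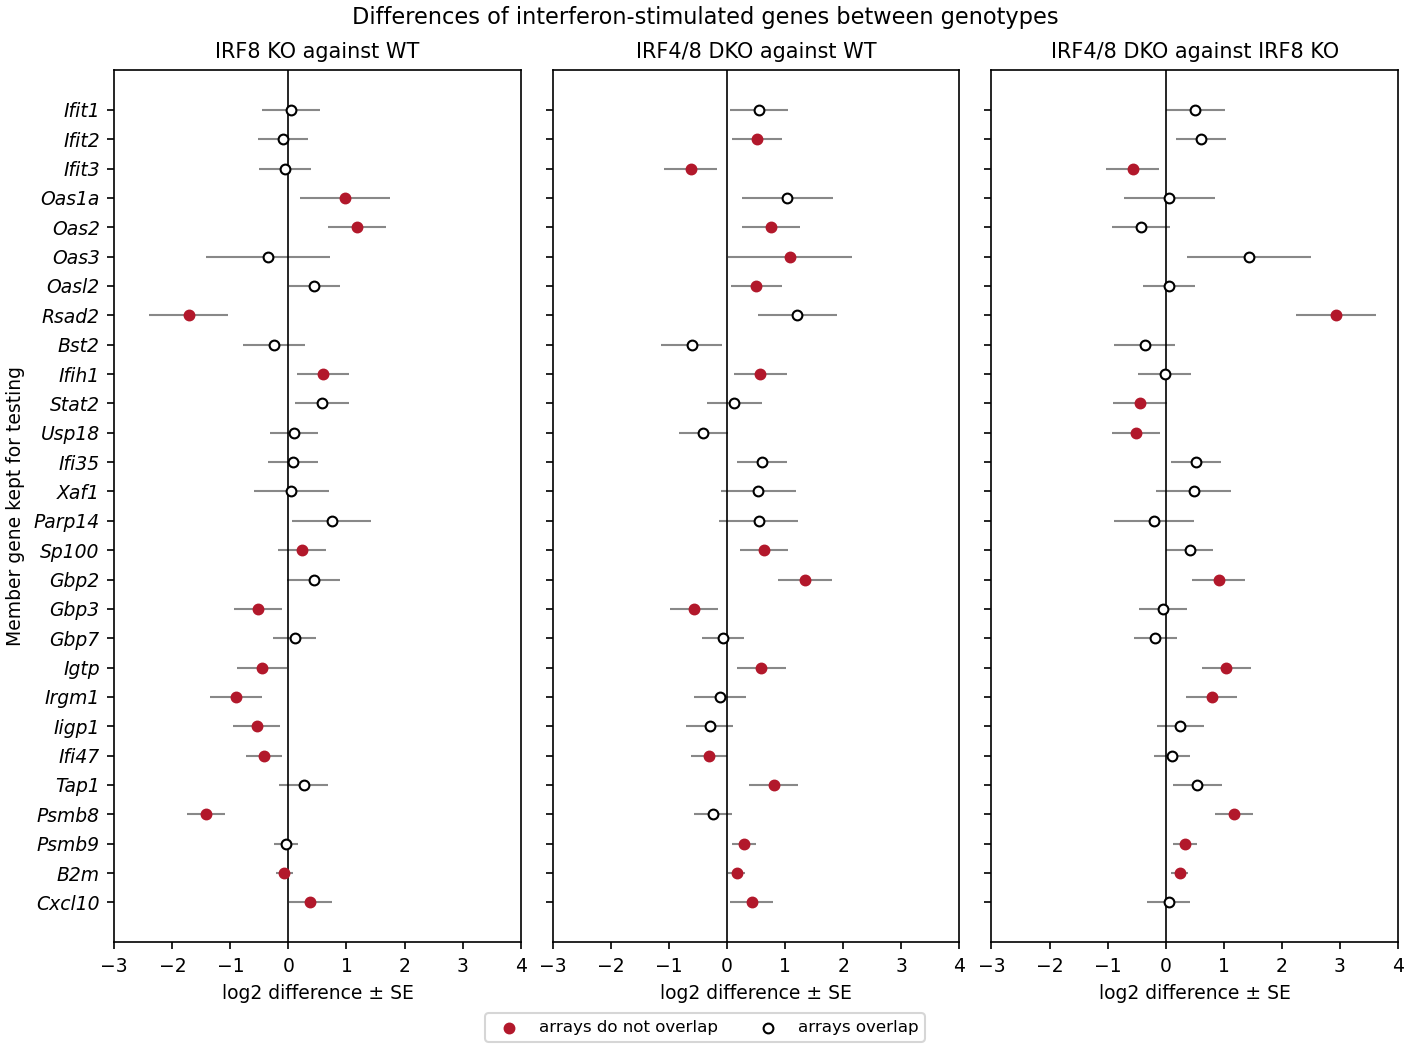
Points are log2 differences with standard errors from limma (horizontal axis, log2 units) for the 28 genes kept (vertical axis), in 3 comparisons, filled where the 2 arrays of each genotype do not overlap. In IRF8KO against WT points fall on both sides of 0, from -1.72 for Rsad2 to 1.18 for Oas2, and in IRF4/8DKO against WT 12 of the filled points lie on the right.

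IRF4/8DKO replicate 2, from the female of 16 weeks, carried many of the high values. Of the 28 members kept, 11 read highest on that array (39.3%), where 21.8% of all genes kept did so. They were Ifit1, Oas1a, Oasl2, Rsad2, Ifih1, Ifi35, Sp100, Gbp2, Igtp, Tap1 and Psmb9. The median difference of members kept from the WT mean was 0.58 on that array and 0.15 on IRF4/8DKO replicate 1, where all genes kept had 0.026 and 0.0043. The median log2 difference of members kept in IRF4/8DKO against WT was 0.51, and it was 0.15 without IRF4/8DKO replicate 2 and 0.31 without WT replicate 2. Against IRF8KO it was 0.25, or 0.037 without IRF4/8DKO replicate 2. The same array had the highest summed monocyte and macrophage markers and the highest T and NK cell (2139) and B cell (736) sums. Most of these last sums came from Nkg7 (2023) and Cd79b (656), and Nkg7 lay above WT on every knockout array. Of the other B cell markers, Cd79a read 60.8 on that array, below WT (71.9 and 66.3). Ms4a1 (17.6) and Pax5 (1) lay below the 40th percentile of the array, which was 19.4. On the same array 5 of 7 T and NK cell markers lay above that percentile, against 2 or 3 on the other arrays. Of the defining markers Cd3d (25.5) was above it, and Cd3e (6.29) and Cd3g (11.1) were below. The part of these markers in the result was not tested.

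**Figure D4:**
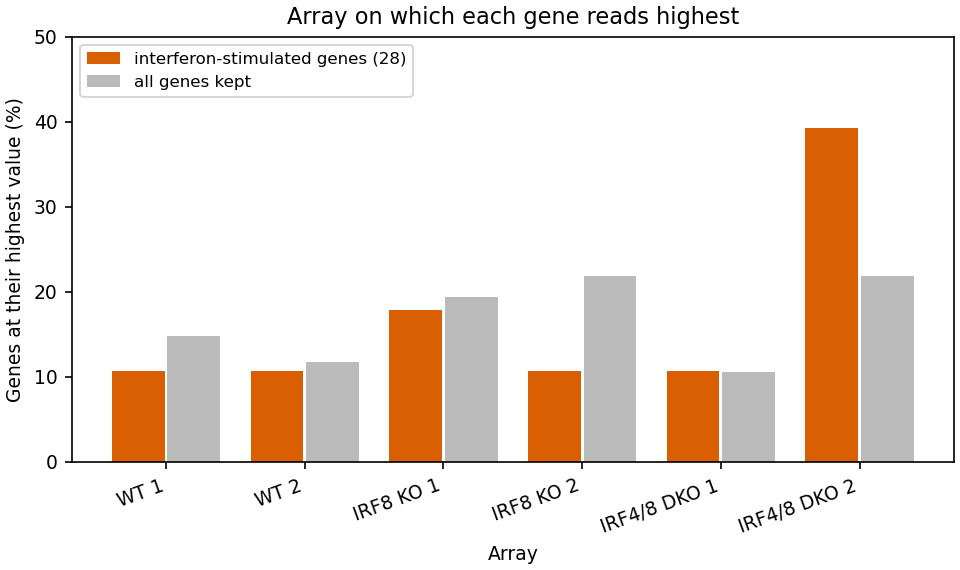
Bars give the percent of the 28 members kept (orange) and of all genes kept (grey) that read highest on each of the 6 arrays (horizontal axis). The orange bar stands at 39.3% on IRF4/8DKO replicate 2, against a grey bar of 21.8%, and the other orange bars are between 10.7% and 17.9%.

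Replicates of a genotype differed more for these genes in IRF4/8DKO than in WT. The median gap between the arrays of a genotype was a log2 of 0.41 in WT, 0.50 in IRF8KO and 0.71 in IRF4/8DKO for the members kept, and 0.31, 0.50 and 0.42 for all genes kept. Gaps over 2-fold were found for 0, 4 and 8 of the 28 members, where 10.2%, 27.4% and 19.8% of genes had them. These gaps were not tested between genotypes, and the arrays of a genotype also differ in sex and, for WT and IRF8KO, in age.

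The pathway upstream was followed in lists chosen by role. Of type I interferon genes 8 of 13 were measured and 3 kept, with 0 past the limma test in each comparison and at most 1 at an unadjusted p under 0.05. Ifnb1, the gene of interferon beta, read 15.2 and 17.7 in WT, 39.2 and 30.5 in IRF8KO, and 6.29 and 7.08 in IRF4/8DKO, and was chosen, like the other genes of these lists, after its values were seen. The WT and IRF4/8DKO values lie below the 40th percentile of their arrays, and Ifnb1 passed the filter through IRF8KO alone, so no order of genotypes is read from it. Ifng was measured and did not pass the filter. Of 12 receptor and signalling genes 11 were measured and kept, with 0 past the test and medians of 0.57 in IRF8KO and 0.24 in IRF4/8DKO against WT. Ifngr1, a chain of the interferon gamma receptor, read 2773 and 2815, 5175 and 4933, and 4896 and 4226. Every knockout array of Ifngr1 lay above WT (over both genotypes log2 0.78 ± 0.18, limma adjusted p = 0.108).

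Among 6 measured IRF factors other than IRF4 and IRF8, 0 passed the test in each comparison. Irf1, itself an interferon gamma target that drives many of the listed genes, read 1137 and 948 in WT, 1465 and 2540 in IRF8KO, and 1885 and 2177 in IRF4/8DKO, above WT on every knockout array (over both genotypes log2 0.92 ± 0.30, limma adjusted p = 0.265). Irf7, the amplifier of the type I response, read 62.7 and 61.8, 54.2 and 68.5, and 48.8 and 125, with overlap between all genotypes. All 11 inhibitors were measured and 10 kept, and 0 passed. Socs3 read 53.4 and 65.3, 18.7 and 3.36, and 35.2 and 18.3, so that all knockout arrays lay below WT (IRF8KO log2 -1.79 ± 0.47, limma adjusted p = 0.173). All 15 nucleic acid sensors and adaptors were kept and 0 passed, with medians of 0.30 in IRF8KO and 0.57 in IRF4/8DKO against WT. At an unadjusted p under 0.05 by limma the receptor and signalling list had 1, 2, 0 and 2 of 11 genes, in the order of the 4 comparisons above, where 12.0%, 7.99%, 7.77% and 10.2% of genes kept had it. The IRF factors had 1, 1, 0 and 2 of 6, the inhibitors 1, 1, 0 and 3 of 10, and the sensors and adaptors 1, 1, 0 and 1 of 15.

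A list of 43 further interferon-stimulated genes, of which 36 were measured and 35 kept, had 1 gene past the test in IRF4/8DKO against WT (0.408% of genes kept passed) and over both genotypes (0.747%), and 0 in the other comparisons. At an unadjusted p under 0.05 it had 7, 4, 4 and 4 of 35 genes in the 4 comparisons, read against the same 12.0%, 7.99%, 7.77% and 10.2%. The gene was Gbp6, which codes for a guanylate-binding protein. It read 3.95 and 6.45 in WT, 39.2 and 17.3 in IRF8KO, and 129 and 145 in IRF4/8DKO. The 3 genotypes did not overlap. Gbp6 was called higher in IRF4/8DKO than in WT by a log2 of 3.24 ± 0.42 (limma adjusted p = 0.0285, from 0.00198 to 0.538 over alternatives) and over both genotypes by 2.24 ± 0.36 (adjusted p = 0.0381, from 0.00780 to 0.704). Its WT values are under the pseudocount of 10.5, on which the size depends, and under the 40th percentile of their arrays (25.9 and 23.2). Gbp6 passed the filter only through knockout arrays, so a gene kept in this way had to differ, and its call is given as a description that supports nothing. Both calls were lost without either WT array, without either IRF4/8DKO array, without the filter, without a variance trend and with sex as a block, and the second also with a filter at the 60th percentile. Another Gbp6 probe set read 10.6 and 6.13, 1 and 1, and 4.54 and 72.8. Irgm2, of the same GTPase branch as Irgm1 and Igtp, read 227 and 305, 154 and 152, and 576 and 624. Its genotypes kept the order seen for Igtp, with IRF8KO lowest and IRF4/8DKO highest (IRF4/8DKO against IRF8KO log2 1.90 ± 0.41, limma adjusted p = 0.482). Of the 36 genes measured, 24 lay higher in IRF4/8DKO than in IRF8KO and 12 lower. Among the lower, Samd9l read 429 and 156, 706 and 901, and 175 and 377 (log2 -1.59 ± 0.58, limma adjusted p = 0.557), and Ddx60 differed by -0.71. Rtp4 lay above WT on every knockout array (over both genotypes log2 1.98 ± 0.50, limma adjusted p = 0.145). Tapbp, the gene of the chaperone tapasin that loads peptide on MHC class I, read 1725 and 1982, 2882 and 3568, and 3393 and 5046, above WT on every knockout array (IRF4/8DKO log2 1.16 ± 0.28, limma adjusted p = 0.176). Of 8 MHC class I genes 3 were measured and 0 passed, and H2-K1, H2-D1 and H2-M3 all had higher means in IRF4/8DKO than in IRF8KO.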

How the data were processed

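RNA of GMPs from 6 mice, 2 per genotype, was hybridised to Affymetrix Mouse Genome 430 2.0 arrays after labelling from 10 ng of total RNA, per the labels' protocols. The deposited intensity of a probe set is linear. Per the labels and design text, the authors used dChip 1.3 to normalize the arrays and to fit its model of perfect-match minus mismatch signal. The sources used here do not say how they normalized or whether they set a floor. Arrays carry no depth, and their number limits the precision. Probe sets were named through GEO's platform annotation, updated against RefSeq genes (34945 had 1 symbol, 932 several and 9160 none), and only those with 1 symbol stand for a gene. Control probe sets for RNA quality were not analysed here.

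Tests used log2(value + 10.5), with the 25th percentile over the whole table as pseudocount. A probe set was kept if at least 2 of 6 arrays held it above their 40th percentile (29783 kept, 15254 left out, 13251 genes kept). One limma 3.58.1 fit (R 4.3.3) held all arrays, with a variance trend, no covariate, 3 residual degrees of freedom and a threshold of 0.05 after Benjamini-Hochberg adjustment over the probe sets kept. The scripts were tested on simulated data. Alternatives were pseudocounts of 3.9 and 39.23, median centring, quantile normalization, no filter or one at the 60th percentile, no variance trend, a fit of the compared genotypes alone, sex, age or replicate number as a term, leaving out each array, and a mean of each gene's probe sets. Tests are printed for the 6 members with the lowest p in each comparison, by a rule set with the lists. The members and lists were chosen with earlier results of these data known. Leaving out arrays for the counts of non-overlapping genes was added after seeing the data.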

Additional observations from a re-analysis of the deposited data

Results flagged for a closer look

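Rsad2 differed between IRF4/8DKO and WT in opposite directions by sex. The log2 difference was -0.11 between the male arrays and 2.53 between the female arrays. The median of the members kept in IRF8KO against WT was -0.0157 between the male arrays and 0.0442 between the female arrays, both near 0. In IRF4/8DKO against WT that median was 0.017 between the male arrays, with 15 of 28 members above 0. Between the female arrays, which include IRF4/8DKO replicate 2, it was 0.49, with 19 above 0. With 1 array per sex and genotype, none of these differences between the sexes was tested. Age differs along with sex in WT and IRF8KO.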

How the results depend on the processing

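The mean of each gene's probe sets was run for the median of members kept only. That median was -0.028 in IRF8KO against WT, 0.34 in IRF4/8DKO against WT, 0.24 in IRF4/8DKO against IRF8KO and 0.17 over both. No member among the 6 with the lowest p in a comparison changed direction there under the other alternatives. Oas3, outside these 6, changed direction with an array left out. It lay below WT without IRF8KO replicate 1 and above WT without IRF8KO replicate 2, and on opposite sides of IRF4/8DKO likewise. The count of members past the limma test was compared over the alternatives that kept 2 arrays per genotype and tested single genes. It was 0 in all 4 comparisons, with 1 exception. In IRF8KO against WT a replicate block gave 1 (Psmb8, lower, limma adjusted p = 0.0394). Whether the replicate numbers pair the samples is not known. Deviations of same-numbered arrays correlated at 0.041 (WT and IRF8KO), 0.19 (WT and IRF4/8DKO) and 0.21 (IRF8KO and IRF4/8DKO). With 2 arrays per genotype these values cannot decide it. The block changed no other call of a member. It raised the probe sets called from 9 to 209 in IRF8KO against WT and from 89 to 216 in IRF4/8DKO against WT. In IRF4/8DKO against IRF8KO they went from 0 to 1, and over both genotypes from 179 to 391. No count of members is read from fits that leave out 1 array, as these rest on a single array of a genotype. The median of members kept in IRF4/8DKO against WT was 0.29 without the filter, 0.74 with median centring, and 0.15 to 0.58 with single arrays left out. In IRF4/8DKO against IRF8KO it was 0.037 to 0.33 with single arrays left out, and over both genotypes against WT 0.43 with median centring, 0.12 without the filter, 0.12 without WT replicate 1 or IRF8KO replicate 1, and 0.10 to 0.28 over all arrays left out singly, lowest without IRF4/8DKO replicate 2. Median centring also moved the median of all genes tested, to 0.18 in IRF8KO against WT, 0.25 in IRF4/8DKO against WT, 0.068 in IRF4/8DKO against IRF8KO and 0.21 over both, so the member medians stand 0.0052, 0.49, 0.26 and 0.22 above it. Of 9 members with several probe sets kept, 3 had the same sign in all of them in IRF8KO against WT, 7 in IRF4/8DKO against WT, 5 in IRF4/8DKO against IRF8KO and 4 over both. The fit of the compared genotypes alone does not apply to the comparison of both genotypes. With 2 arrays per genotype, genes at low intensity such as the Mx genes, Oasl1, Ifi203 and Ifi204 cannot be compared here.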

Other observations

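The members measured were split by a match to the response element core (GAAA, any 2 bases, GAAA) in the promoter. In IRF4/8DKO against WT the 16 measured members with a match had a median log2 difference of 0.30, with 11 above 0, and the 10 measured members that had a promoter sequence without a match had 0.515, with 7 above 0. In IRF8KO against WT the medians were -0.010 and 0.0042. In IRF4/8DKO against IRF8KO they were 0.057, with 9 of 16 above 0, and 0.50, with 10 of 10 above 0. The 10 include Oasl1 and the 16 include Ifi203, which did not pass the filter. For Sp100, among the 10, the other kept probe set gave -0.85 in this comparison. For Stat2 and Gbp7, among the 16, the probe sets used gave -0.44 and -0.18 and the other kept ones 0.92 and 0.35. The share of all genes above 0 was not computed. The medians and counts describe the letters in a window of 300 bases and were not tested.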
